A study of Mus musculus with 10 samples.

Results

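Rab11 apical recycling machinery is described here by 10 genes: the Rab11 family members *Rab11a*, *Rab11b* and *Rab25*, the Rab11 effectors *Rab11fip1*, *Rab11fip2*, *Rab11fip3* and *Rab11fip5*, the motor *Myo5b*, and the exocytic Rabs *Rab8a* and *Rab10*. The genes were chosen by name, with earlier results of these data known. A gene counted as measured where the array had a probe set annotated with its symbol alone. By this rule 8 of the 10 genes were measured, out of 22180 genes on the array. The probe sets of *Rab11fip1* and *Rab11fip5* also carry the symbol of another gene, so no value is given for these 2 genes. In knockout livers *Vps33b*, which encodes a trafficking protein that acts with Rab11, was deleted, and the comparison asks whether RNA of the genes of the Rab11 route differs from that in control livers.

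RNA of 10 mouse livers was measured on Affymetrix Mouse Gene 2.0 arrays, 1 array per mouse. The 6 knockout mice were Vps33b fl/fl-AlfpCre (males 1, 2 and 3 and females 4, 5 and 6), and the 4 control mice were Cre-negative Vps33b fl/fl littermates (males 1 and 2 and females 3 and 4), so that both genotypes carry the floxed allele. AlfpCre is driven by albumin and alpha-fetoprotein elements, and in this line it deletes the second and the third exon of *Vps33b* in hepatocytes and bile duct cells, while the other cells of the liver keep the gene. All mice received chow with 0.5% cholic acid, a primary bile acid, which per the labels began at 10 weeks of age and lasted 2 weeks. The general methods of the study give an earlier start and a longer feeding. For the array mice, its results give a range of ages at sacrifice into which the labels fit. Values are log2 expression after RMA, a method that corrects background, equalises the distributions of the arrays and summarises the probes of a probe set.

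Hepatocytes send part of their apical membrane proteins to the bile canaliculus through the apical recycling endosome. Rab GTPases act as switches on its vesicles. In the GTP-bound form Rab11 recruits effectors of the Rab11-FIP family and the motor myosin Vb, which carry the vesicles along actin towards the apical membrane, and Rab8 and the exocyst act in the later steps of docking. Rab11a and Rab11b are found in most tissues, whereas Rab25, the third member of the family, is known mainly from epithelia. In people, mutations of *MYO5B* cause microvillus inclusion disease and a cholestasis.

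*Rab25* was the 1 member of the 8 that differed by genotype. It rose about 2.03-fold in knockout liver, and every knockout liver lay above every control. At the probe set of highest mean, the 7 other measured members moved by -0.12 to 0.10 on the log2 scale. Their 95% intervals together span -0.27 to 0.27. That span corresponds to 0.828-fold to 1.20-fold. It leaves out further probe sets of *Rab11b* and *Rab8a*, given below, which had standard errors of 0.12 to 0.16. Each gene was tested in limma with genotype and sex as terms, with Benjamini-Hochberg adjustment over all 22180 genes and a threshold of 0.05. The share of members called higher, 12.5% (1 of 8), stands beside 3.11% of all genes called higher, and 0 members were called lower beside 1.14% of all genes (1 member had an unadjusted p under 0.05, *Rab25*). The share of all genes at an unadjusted p under 0.05 was not counted. Such counts, here and below, cannot be read as an excess over all genes. The median log2 fold change was 0.01 over the 8 members and -0.01 over all genes.

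**Figure D1:**
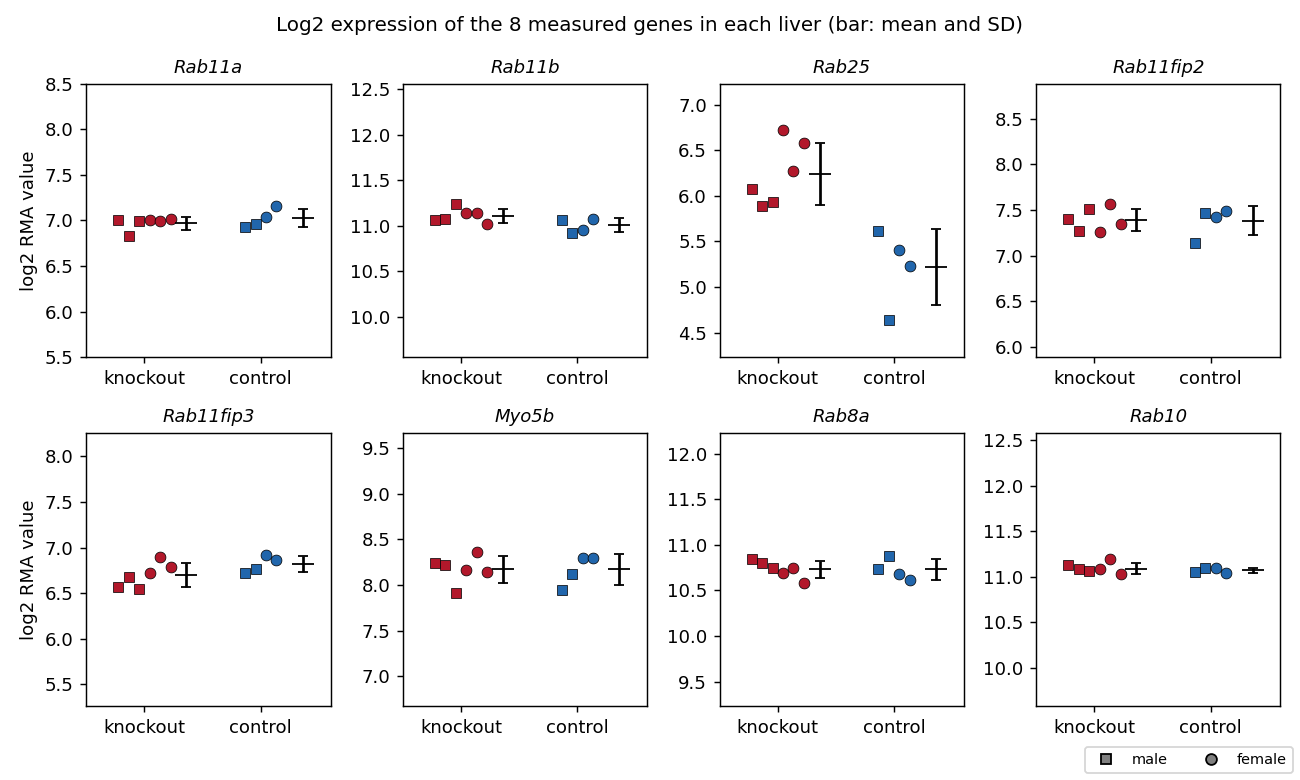
Log2 RMA value (y axis, each panel spanning the same width of the scale) of the 8 measured genes in the 6 knockout and 4 control livers, with squares for males, circles for females and bars for mean and SD. *Rab25* sits between 5.89 and 6.72 in knockout livers, above the 4.64 to 5.61 of control livers, and in the other 7 panels the groups overlap.

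The sequences just before the annotated start of the 3 Rab11 family genes, which encode related GTPases, are shown as a description. Whether these sequences bear on the rise of *Rab25* was not tested. They are the 250 bases before each start from RefSeq, build GRCm38.p6, written 5′ to 3′ on the strand of the gene, which is the minus strand for all 3. *Rab25* is at chr3:88548280-88548529, *Rab11a* at chr9:64737757-64738006 and *Rab11b* at chr17:33760487-33760736. Capitals mark the GC box (GGGCGG or CCGCCC) and the CCAAT box (CCAAT or ATTGG).
Rab25: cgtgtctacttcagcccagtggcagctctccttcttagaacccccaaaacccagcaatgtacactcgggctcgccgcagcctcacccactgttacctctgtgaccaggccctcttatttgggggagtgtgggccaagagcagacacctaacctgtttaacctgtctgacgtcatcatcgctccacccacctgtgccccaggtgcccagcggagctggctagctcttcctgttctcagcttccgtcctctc
Rab11a: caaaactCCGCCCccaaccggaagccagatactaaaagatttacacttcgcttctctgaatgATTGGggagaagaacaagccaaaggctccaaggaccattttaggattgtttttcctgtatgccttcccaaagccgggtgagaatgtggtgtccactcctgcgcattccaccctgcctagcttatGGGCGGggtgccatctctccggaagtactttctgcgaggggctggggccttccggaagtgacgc
Rab11b: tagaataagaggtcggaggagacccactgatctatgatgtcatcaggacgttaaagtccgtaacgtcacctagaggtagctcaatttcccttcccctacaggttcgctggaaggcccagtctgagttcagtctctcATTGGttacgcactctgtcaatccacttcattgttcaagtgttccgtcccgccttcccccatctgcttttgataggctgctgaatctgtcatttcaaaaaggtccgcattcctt

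The *Rab11a* window holds 2 GC boxes and 1 CCAAT box, the *Rab11b* window 1 CCAAT box and the *Rab25* window neither. Of 32851 windows of this length in the RefSeq table, 32.7% hold a GC box and 33.8% a CCAAT box on either strand. A TATA box (TATAAA, or TTTATA on the other strand) is in none of the 3 windows and in 12.4% of all. The number of CpG dinucleotides was 8 for *Rab25*, 10 for *Rab11a* and 9 for *Rab11b*, against a median of 6 over all windows. Starts of 8 of the 10 genes matched the table, with 10 windows in all. *Rab11fip1* and *Myo5b* did not match. Of the 10 windows, 6 hold a GC box and 6 a CCAAT box. Like that of *Rab25*, a window of *Rab11fip3* (chr17:26021861-26022110), which did not pass the test, holds neither. The other window of *Rab11fip3* (chr17:26069519-26069768) holds 1 GC box, 1 CCAAT box and 1 TATA box. These letters describe the sequence, and no binding or methylation was measured.

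*Rab25* encodes a GTPase of the Rab11 family that is known in apical recycling and transcytosis of epithelial cells. Its log2 value (probe set 17406807) was 6.08, 5.89, 5.93, 6.72, 6.27 and 6.58 in knockout livers 1 to 6, against 5.61, 4.64, 5.41 and 5.23 in control livers 1 to 4. The 3 knockout females were the highest of all mice, the 3 knockout males came next, and male control 2 was the lowest. The mean was 6.24 ± 0.34 (SD, n = 6) in knockout and 5.22 ± 0.42 (SD, n = 4) in control livers. The log2 fold change was 1.02 with a standard error, SE, of 0.17 (95% interval 0.65 to 1.39, adjusted p = 0.00883 from limma). Groups failed to overlap in this direction for 3.39% of all genes, and in the opposite one for 1.93% of all genes and 0 members. With any 1 mouse left out the call remained, with log2 fold changes of 0.87 to 1.25 and adjusted p of 0.000524 to 0.0414. The call was lost with the replicate number as a block in limma (1.07, adjusted p = 0.0711), though the labels tie no number to a litter or batch. *Rab25* was not tested where genes with a mean log2 value under 6 were left out. The signal of *Rab25* was low, though above that of 3 Y-linked genes in female livers, which lack them and read 3.38 to 4.51. Different probe sets respond differently, so this background is only a rough one, and a fold change near it can be understated.

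Markers of bile duct cells were also tested in limma, which called 3.11% of all genes higher in knockout liver and 1.14% lower. Of 10 markers listed, 7 were measured, 5 of these rose and 0 fell in knockout liver (limma). They were *Epcam*, an epithelial adhesion molecule (1.14, adjusted p = 0.000996), the keratins *Krt23* (1.07, adjusted p = 0.00862) and *Krt19* (0.52, adjusted p = 0.0133), the transcription factor *Sox9* (1.09, adjusted p = 0.0188) and the claudin *Cldn4* (1.65, adjusted p = 0.0284), each as a log2 fold change. Keratin gene *Krt7* (0.36, adjusted p = 0.10) and the chloride channel *Cftr* (0.35, adjusted p = 0.303) did not pass. The mean log2 value over the 7 markers ran from 6.77 to 7.29 in knockout livers and from 5.98 to 6.25 in control livers, without overlap, and *Cftr* read 3.93 to 4.90 in knockout and 3.70 to 4.24 in control livers, within or close to the background range. The count of 5 was 3 without control 2, without control 4 or with all probe sets tested. In whole liver RNA, more cells of a type and more RNA per cell cannot be told apart, and the part of bile duct cells in the rise of *Rab25* was not tested. Hepatocyte markers were high in all livers, with a mean log2 value over 10 genes of 12.87 to 13.00 in knockout and 12.98 to 13.06 in control livers, and 0 of the 10 passed the limma test (1 at an unadjusted p under 0.05). Their log2 fold changes ran from -0.25 (*Tat*, adjusted p = 0.127) to 0.01, with a median of -0.09. With trend and robust moderation 1 was called lower.

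*Rab11a* and *Rab11b*, the Rab11 GTPases of most tissues, did not pass the test. *Rab11a* (probe set 17528202) read 7.0, 6.83, 6.99, 7.0, 6.99 and 7.02 in knockout livers 1 to 6 and 6.93, 6.96, 7.04 and 7.16 in control livers 1 to 4. The values of 5 of the knockout livers lay within 0.03 of each other, with male knockout 2 apart, and all but that one lay inside the control range. Knockout minus control came to -0.05 on the log2 scale (SE 0.07, 95% interval -0.21 to 0.10, adjusted p = 0.779), so that the interval allows 0.866-fold to 1.07-fold. *Rab11b* (probe set 17343617) read 11.07, 11.08, 11.24, 11.14, 11.14 and 11.02 in knockout livers 1 to 6 and 11.07, 10.92, 10.96 and 11.08 in control livers 1 to 4, which overlap. Its log2 fold change of 0.10 (SE 0.07, 95% interval -0.06 to 0.27, adjusted p = 0.535) was the largest positive one after that of *Rab25* among the members. A further 2 probe sets of *Rab11b*, with lower mean values, gave log2 fold changes of -0.07 (SE 0.12) and 0.19 (SE 0.15), neither past the threshold. The coding sequences of both genes are closely related, and which probes read both was not examined.

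Rab11-FIP proteins bind active Rab11 and link it to motors and membranes. *Rab11fip2*, of the class with a C2 domain, binds myosin Vb. It read 7.40, 7.27, 7.51, 7.26, 7.56 and 7.35 in knockout livers 1 to 6 and 7.14, 7.47, 7.42 and 7.49 in control livers 1 to 4. Male control 1 was the lowest of the 10, and the groups overlapped (log2 fold change 0.01, SE 0.10, 95% interval -0.19 to 0.22, adjusted p = 0.968). *Rab11fip3*, which links Rab11 to dynein and acts at the cleavage furrow, read 6.57, 6.68, 6.55, 6.72, 6.90 and 6.79 in knockout livers 1 to 6 and 6.72, 6.77, 6.92 and 6.86 in control livers 1 to 4. Knockout males 1, 2 and 3 lay below all controls, and the knockout females lay within the control range. Its log2 fold change of -0.12 (SE 0.07, 95% interval -0.27 to 0.03, adjusted p = 0.437) was the lowest of the members and did not pass.

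*Myo5b* encodes the heavy chain of myosin Vb, the motor of the recycling endosome. Its log2 value was 8.24, 8.22, 7.91, 8.16, 8.36 and 8.14 in knockout livers 1 to 6 and 7.95, 8.12, 8.30 and 8.30 in control livers 1 to 4. Means were 8.17 ± 0.15 (SD, n = 6) in knockout and 8.17 ± 0.17 (SD, n = 4) in control livers, and *Myo5b* had the widest range, 0.45, among the 7 members that did not pass. The fold change was 1.0 (95% interval 0.873 to 1.16, adjusted p = 0.984 from limma).

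*Rab8a* and *Rab10* act in transport to the plasma membrane. *Rab8a* read 10.84, 10.80, 10.75, 10.69, 10.75 and 10.58 in knockout livers 1 to 6 and 10.74, 10.88, 10.68 and 10.62 in control livers 1 to 4, with a fold change of 1.0 (95% interval 0.899 to 1.11, adjusted p = 0.997). Female knockout 6 was the lowest and male control 2 the highest of the 10. A second probe set of *Rab8a* gave a log2 fold change of 0.10 (SE 0.16, adjusted p = 0.867 over all probe sets). *Rab10* had the narrowest range of the members, 0.17 over all 10 livers. It read 11.13, 11.08, 11.06, 11.08, 11.20 and 11.03 in knockout livers 1 to 6 and 11.05, 11.10, 11.10 and 11.04 in control livers 1 to 4, with a fold change of 1.02 (95% interval 0.916 to 1.13, adjusted p = 0.919).

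**Figure D2:**
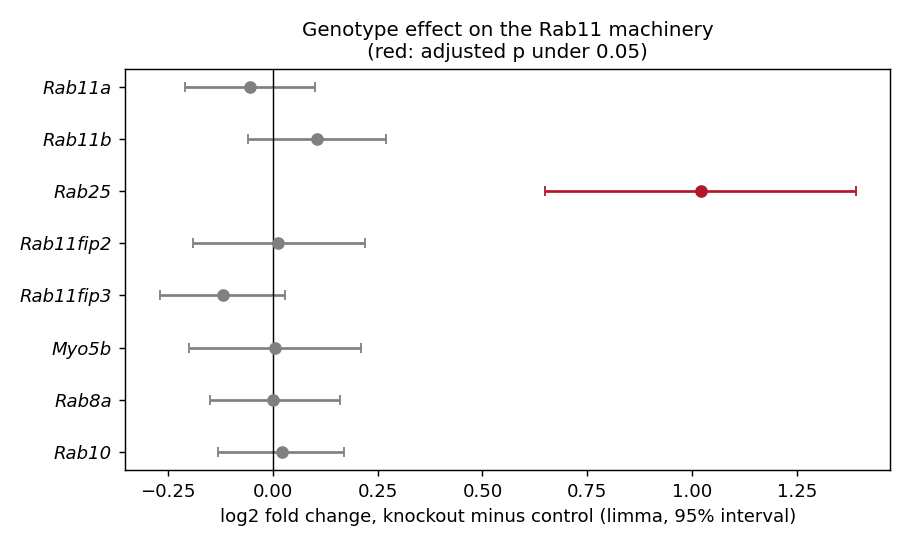
Log2 fold change, knockout minus control (x axis, points with 95% intervals from limma), for the 8 measured genes, each at its probe set of highest mean. The interval of *Rab25*, 0.65 to 1.39, lies apart from 0, and those of the other 7 genes include 0 and stay between -0.27 and 0.27.

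The livers of both sexes were compared in 1 fit with 4 groups of genotype and sex. *Rab25* averaged 5.97 in knockout and 5.13 in control males, a log2 fold change of 0.84 (SE 0.24, adjusted p = 0.193). In females it averaged 6.52 in knockout and 5.32 in control livers, a log2 fold change of 1.20 (SE 0.24, adjusted p = 0.0487). The effect passed in females and not in males, but the difference between the sexes, males minus females, was -0.36 (95% interval -1.11 to 0.38, adjusted p = 0.911) and was not distinguishable from 0. Within females 0.699% of all genes were called higher and 0.207% lower, and within males 0.266% and 0.0812%, with no member lower in either sex. The genotype effect differed between the sexes in 0 of the 8 members in limma (0 at an unadjusted p under 0.05), beside 0.00451% of all genes. For the 7 members other than *Rab25*, differences between the sexes ran from -0.05 to 0.17. With 2 control mice per sex these intervals are wide, and they do not show that the sexes respond alike.

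**Figure D3:**
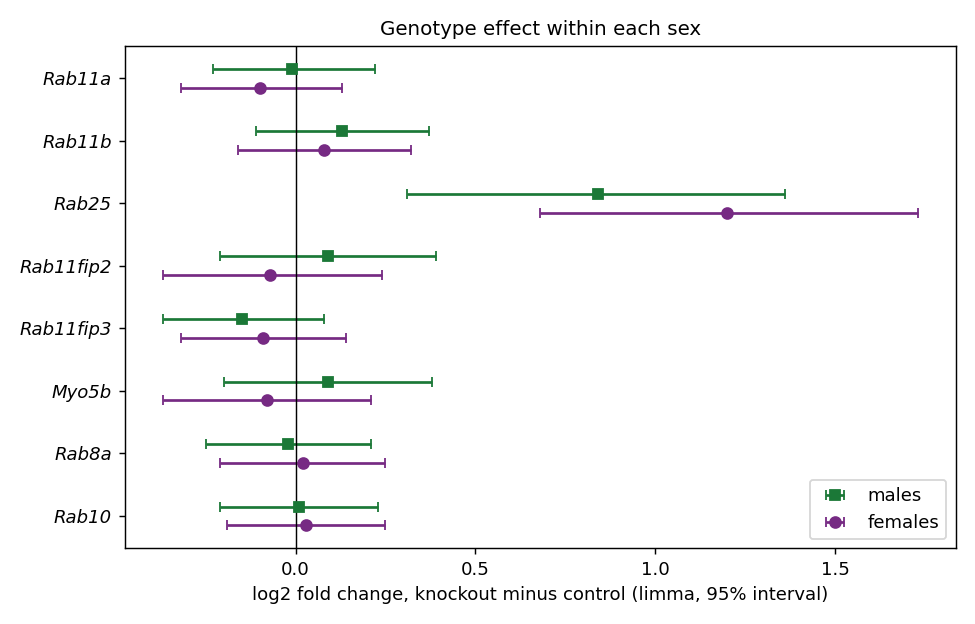
Log2 fold change, knockout minus control (x axis, points with 95% intervals from limma), within males (squares) and females (circles). *Rab25* is higher in knockout livers by 0.84 in males and 1.20 in females with overlapping intervals, and the intervals of the other 7 genes include 0 in both sexes.

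*Vps33b* itself, the targeted gene, read 9.38, 9.20, 9.19, 9.23, 9.39 and 8.92 in knockout livers 1 to 6 and 9.12, 9.15, 9.14 and 9.13 in control livers 1 to 4 (log2 fold change 0.08, adjusted p = 0.739). Where its probes lie relative to the deleted exons is unknown here, so the value does not check the labels. Cells outside the reach of AlfpCre also contribute RNA. The study itself reported loss of *Vps33b* in hepatocytes of this line, by in situ hybridisation and Western blot. *Vipas39*, whose product binds VPS33B, read 7.87 to 8.26 in knockout and 7.83 to 8.20 in control livers (0.04, adjusted p = 0.903).

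Around the members, 72 genes in 7 lists were followed, among them *Vps33b* and *Vipas39*. Of 69 measured genes, 3 rose, 1 fell and 65 did not pass (4.25% of all genes were called in either direction), and the median log2 fold change was -0.01, the same as over all genes. Of 13 guanine nucleotide exchange factors (GEFs), which load Rabs with GTP, and GTPase activating proteins (GAPs), which switch them off, 0 passed in limma (4 at an unadjusted p under 0.05). The smallest adjusted p belonged to *Tbc1d30*, a GAP described for Rab8, at 0.64 on the log2 scale (SE 0.19, adjusted p = 0.0825), which passed without knockout 6 at 0.0172. *Rab3il1*, a Rab8 GEF, followed at 0.33 (adjusted p = 0.138), and passed without knockout 2 at 0.0437, and *Dennd4b*, of a family of Rab10 GEFs, was at 0.20 (adjusted p = 0.141). Of 5 measured genes of GDP dissociation and prenylation, which keep Rabs soluble or anchor them in membranes, 0 passed (2 at an unadjusted p under 0.05), with *Chml*, a Rab escort protein, at 0.38 (adjusted p = 0.0895), *Rabggta* at -0.19 (adjusted p = 0.238) and *Gdi2* at 0.10 (adjusted p = 0.588).

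Of 18 measured further effectors and motors, 0 passed in limma (4 at an unadjusted p under 0.05). As for the lists above, the share of all genes at that unadjusted p was not counted. *Myo5c*, a class V myosin of exocrine and other epithelial tissues, differed by 0.38 on the log2 scale (SE 0.11, adjusted p = 0.0817), and *Myo5a*, the class V myosin of melanosome transport, by 0.28 (adjusted p = 0.191). In control livers *Myo5a* read 4.48 to 4.74, close to the background range. The recycling endosome ATPase *Ehd3* was at -0.35 (adjusted p = 0.181). All 9 exocyst subunits, of the complex that tethers vesicles at the plasma membrane, were measured and 0 passed (0 at an unadjusted p under 0.05). Their log2 fold changes ran from -0.17 (*Exoc5*, adjusted p = 0.297) to 0.16 (*Exoc6b*, adjusted p = 0.485), and *Exoc2* was at 0.12 (adjusted p = 0.491).

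Of 16 measured Rabs of endosomes and apical transport, 2 rose and 0 fell, beside 3.11% of all genes called higher and 1.14% lower. *Rab8b*, the close relative of *Rab8a*, read 6.82, 6.45, 6.48, 7.01, 6.80 and 6.62 in knockout livers 1 to 6, against 6.27, 6.03, 6.18 and 6.05 in control livers 1 to 4. All knockout livers were above all controls (log2 fold change 0.56, SE 0.11, adjusted p = 0.0175), whereas *Rab8a* had a fold change of 1.0. The difference between these paralogues was not tested. *Rab27b*, a Rab of secretory granules and exosomes, read 5.85, 5.60, 5.65, 5.99, 5.65 and 5.70 in knockout livers 1 to 6, against 5.26, 5.15, 5.32 and 5.25 in control livers 1 to 4. Here too the groups did not overlap (log2 fold change 0.50, SE 0.09, adjusted p = 0.0115). Without control 2 neither passed, with adjusted p of 0.0700 for *Rab8b* and 0.0543 for *Rab27b*, and without control 4 *Rab8b* was at 0.0753. *Rab7*, the Rab of late endosomes, read 12.70 to 12.84 in knockout and 12.59 to 12.64 in control livers, without overlap but also without passing (0.14, adjusted p = 0.321). Every knockout liver lay above every control for 3 of the 16 genes, beside 3.39% of all genes.

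Among 6 proteins of the canalicular membrane that travel this or parallel routes, 1 rose and 1 fell. Of all genes, 3.11% were called higher and 1.14% lower. *Abcb1a*, a multidrug transporter, read 10.39, 10.04, 9.80, 10.16, 10.31 and 9.81 in knockout livers 1 to 6, against 9.63, 9.09, 9.58 and 9.64 in control livers 1 to 4, without overlap. The rise was 0.60 on the log2 scale (SE 0.15, adjusted p = 0.0428). This call was often lost with 1 mouse left out. Without control 2, 3 or 4 the adjusted p was 0.153, 0.0955 and 0.0964, and without knockout 1, 2, 4 or 5 it was 0.0677, 0.0806, 0.0915 and 0.0899. *Abcg5*, which exports sterols into bile as a dimer with *Abcg8*, read 11.16, 10.68, 11.03, 10.59, 10.93 and 10.94 in knockout livers 1 to 6, against 11.14, 11.50, 11.35 and 11.70 in control livers 1 to 4, where male knockout 1 and male control 1 overlap. The fall measured -0.53 on the log2 scale (SE 0.14, adjusted p = 0.0491), and the call was lost without any 1 of 8 mice, all but control 1 and knockout 1, with adjusted p of 0.0527 to 0.170. *Abcg8* was at -0.72 (SE 0.19, adjusted p = 0.0557) and passed on leaving out control 1 (0.0376), knockout 1 (0.0359) or knockout 3 (0.0427). *Ceacam1*, an adhesion molecule of the canalicular membrane that is named here after its values were seen, read 11.96 to 12.18 in knockout and 12.21 to 12.33 in control livers, without overlap, and did not pass (-0.23, adjusted p = 0.115). Over all genes, every knockout liver lay above every control in 3.39% and below every control in 1.93%. The number of the 6 genes that were lower ran from 0 to 3 and the number higher from 0 to 1 when other settings were used. *Abcb11*, the bile salt export pump, had a log2 fold change of 0.01 (95% interval -0.15 to 0.16, adjusted p = 0.974).

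**Figure D4:**
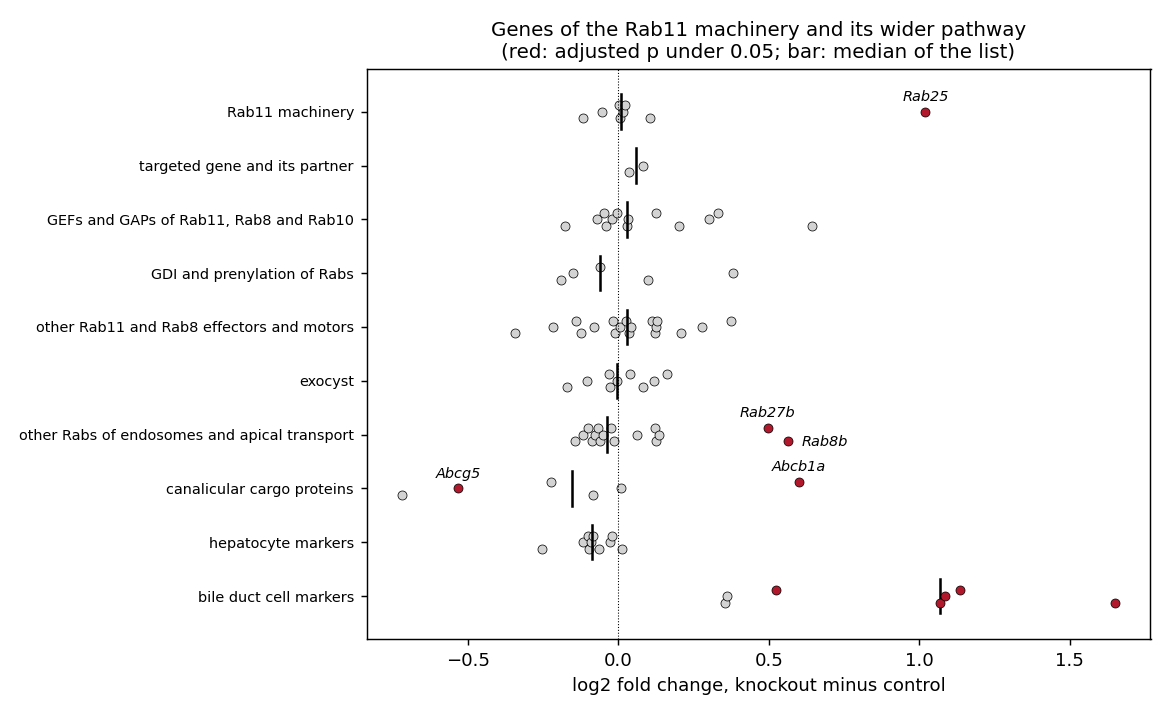
Log2 fold change, knockout minus control (x axis), of each measured gene (points) in the Rab11 machinery, 7 pathway lists and 2 marker lists (rows), with the list medians as bars and genes past the threshold in red. Most points lie close to 0, apart from *Rab25* at 1.02, a few named genes and the bile duct markers, whose median is 1.07.

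Across the array, the limma test called 690 of 22180 genes higher and 252 lower in knockout. These numbers changed when 1 mouse was left out, which also leaves a smaller group. Without control 2, 3 or 4, the counts were 233, 448 and 244 higher and 47, 114 and 77 lower. Without control 1, 825 were higher and 449 lower. Without knockouts 2 and 4, 440 and 372 were higher and 115 and 113 lower, and without knockout 5, 144 were lower. Correlations between arrays ran from 0.982 to 0.991. Of the other cell types, 5 of 10 macrophage markers, 3 of 10 stellate cell and fibroblast markers, 1 of 8 endothelial and 1 of 6 neutrophil markers rose and 0 of 7 lymphocyte markers passed in limma (1 at an unadjusted p under 0.05). Leaving out 1 mouse moved these counts to 0 to 7, 0 to 5, 0 to 2 and 0 to 1, with 0 in all 4 lists without control 2 or control 4, and 1 or 2 macrophage markers without control 3 or knockout 1, 2, 4 or 5. With array weights 10 macrophage and 6 stellate cell markers rose, and with all probe sets 0 and 1. The part of these cells in the rise of *Rab25*, *Rab8b* and *Rab27b* was not tested.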

How the data were processed

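Liver RNA of 10 mice, 6 knockout and 4 control, was measured on 1 array each. The file holds log2 expression that the authors computed by RMA with the oligo package (versions not stated), 1 value per probe set and array. Quantile normalisation within RMA hides any overall shift in RNA. There are 41345 probe sets. The platform annotation gives 1 symbol to 23521 of them (23328 with a gene identifier in RefSeq), several to 1820, which were left out, and none to 16004. Where a gene had several probe sets, that of the highest mean stood for it, which left 22180 genes. limma 3.58.1 (R 4.3.3) was fitted on all genes with genotype and sex as terms, and with 4 groups for the effects within each sex, with Benjamini-Hochberg adjustment over all genes. The pipeline was tested on simulated data. The members, gene lists and tests were chosen with earlier results of these data known. All measured members are named, and of each pathway list the genes past the threshold or, if fewer, the 3 with the smallest adjusted p, beside *Abcb11* and the bile duct markers (added with their values known). The alternatives changed the model terms, probe sets, dim-gene filters, scaling or moderation, or left out a mouse. Precision is set by the number of arrays. No slide or scan date was given in the file.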

Additional observations from a re-analysis of the deposited data

Results flagged for a closer look

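The lowest or highest mouse of a group lay apart from the others, by Dixon's test, in 5 of the 56 groups checked, and chance alone flags about 1 in 20 groups. *Rab11a* was at 6.83 in male knockout 2, against 6.99 to 7.02 in the other 5 knockout livers. *Rab3il1* was at 6.36 in the same liver, against 6.77 to 7.02 in the others. For *Gdi2*, female knockout 6 read 11.89 and the other knockout livers 12.01 to 12.08. For *Exoc2*, male control 1 read 7.70 and the other controls 7.85 to 7.88. For *Abcb1a*, male control 2 read 9.09 and the other controls 9.58 to 9.64.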

How the results depend on the processing

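Under 22 alternatives, 12 settings and 10 that leave out 1 mouse, *Rab25* kept its direction in the 21 that tested it, with log2 fold changes of 0.87 to 1.25, and its call in all but the fit with the replicate number as a block (1.07, adjusted p = 0.0711), where 0 members passed. It was not tested, and 0 of 7 members passed, with genes of a mean log2 value of at least 6. No other member passed under any alternative. Where the effect was near 0 its sign turned: *Rab11fip2* was at -0.05 with the replicate block, -0.02 with arrays centred on their medians, -0.01 with quantile normalisation again and -0.03 with array weights, *Myo5b* at -0.03 with centring and -0.0092 with array weights, *Rab8a* at -0.03 and *Rab10* at -0.01 with centring, and *Exoc5* at 0.09 with the probe set of largest variance. Leaving out 1 mouse gave -0.07 to 0.06 for *Rab11fip2*, -0.05 to 0.05 for *Myo5b*, -0.02 to 0.03 for *Rab8a*, -0.001 to 0.04 for *Rab10* and -0.02 to 0.07 for *Vipas39*. Over all genes tested, 690 were higher and 252 lower, and leaving out 1 mouse gave 233 to 825 and 47 to 449. With the replicate block 208 were higher and 49 lower, and with all probe sets 320 and 75. The number lower was 165 with no sex term, 420 with a mean of at least 6 and 499 with array weights. *Rab8b* was lost with all probe sets at 0.0539. *Abcb1a* was lost with all probe sets at 0.110 and with centring at 0.0510, and *Abcg5* with all probe sets at 0.122, the probe set of largest variance at 0.0502 and quantile normalisation again at 0.0688. *Abcg8* passed with the filters on dim genes at 0.0422 and 0.0391 and with array weights at 0.0268, and *Tbc1d30* with array weights at 0.0499. The cause of these shifts was not tested. The labels do not say that equal replicate numbers mark a shared litter or batch. Deviations of same-numbered mice correlated at 0.17, 0.29, -0.22 and 0.16, with 3 of 4 pairs over 0.1 and the negative pair a male with a female, and 0 of 4 controls matched best the knockout of its own number, so the values do not settle whether the numbers pair mice. With the block the calls of *Rab27b* (0.0717), *Rab8b* (0.0926), *Abcb1a* (0.0533) and *Abcg5* (0.254) were lost too. Of the gene lists, the canalicular proteins had 0 lower with the block, all probe sets, the probe set of largest variance or quantile normalisation again, 2 with a mean of at least 5, trend and robust moderation or array weights and 3 with a mean of at least 6, and 0 higher with the block, all probe sets or centring. With the block 3 bile duct, 2 macrophage and 0 stellate cell, endothelial and neutrophil markers rose. With all probe sets the endothelial and neutrophil counts were 0 too. Stellate cell markers were at 6 with both filters on dim genes, macrophage markers at 3 with 4 groups of genotype and sex, and endothelial markers at 0 with no sex term or centring and 2 with the filters, trend and robust moderation or array weights.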
